A study of Drosophila melanogaster with 16 samples.

Results

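Innexins are the proteins that form gap junctions in insects, and the fruit fly *Drosophila melanogaster* has 8 genes for them. The 7 described here, *ogre* (innexin 1), *Inx2*, *Inx3*, *Inx5*, *Inx6*, *Inx7* and *shakB*, were chosen by name, with earlier results of these data known. Of these 7 genes, 6 have a row in the table of 12286 genes, and *Inx6* was not analysed here. The eighth fly innexin, *zpg*, is not among the chosen genes and is given only for comparison. RNA was sequenced from the heads of flies aged 10 days, each sample being a pool of 6 flies, 3 males and 3 females. All flies carried the neuronal driver SybQF2 of the Q system and the glial driver RepoGAL4, and differed in their transgenes for human wild-type α-synuclein. Control flies (SybQF2, RepoGAL4/+) had no transgene, glia flies carried UAS-Syn, which RepoGAL4 drives in glia, and neuron flies carried QUAS-Syn, which SybQF2 drives in neurons. The flies called both carried the 2 transgenes together. The comparisons ask how innexin transcripts differ when α-synuclein, the protein that aggregates in Parkinson's disease, is made in glia, in neurons or in both.

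Innexin subunits assemble into a hemichannel, and hemichannels of neighbouring cells dock to form a channel that passes ions and small molecules such as calcium and inositol trisphosphate. Ogre and Inx2 couple the glia of the fly blood-brain barrier and act in the lamina glia beneath the retina, and Inx2 and Inx3 can form mixed channels and interact in epithelia. ShakB forms electrical synapses between neurons, among them those of the giant fibre escape circuit. Inx5, Inx6 and Inx7 have been placed in mushroom body circuits, where Inx6 and Inx7 couple a pair of large modulatory neurons that act in memory.

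The data comprised 13 libraries, 3 control, 3 glia, 3 neuron and 4 both, and the 3 other samples of the series (control 4, glia 3 and neuron 4) were not analysed here. A library held 2808960 to 4767799 reads in genes. The head markers were present throughout, with 24122 to 84273 normalized counts for the opsin *ninaE*, 557 to 1516 for neuronal *elav* and 102 to 270 for glial *repo*. Library glia 2 stood apart, with the lowest summed level of 12 neuronal markers (12484, against 20566 to 32909 in the other libraries) and the highest summed level of germline markers (3729, against 263 to 792 in the others). Levels below are normalized counts, that is reads divided by the submitters' size factor of the library. Differences were tested with limma on log2(normalized count + 1) over all libraries and 12181 genes, and a gene is said to have risen or fallen only where its Benjamini-Hochberg adjusted p was under 0.05. The labels do not say whether pools came from separate crosses, so the p-values measure the spread between pools. In whole heads, fewer cells of a type and less RNA per cell cannot be told apart.

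Of the 7 chosen genes, 6 lie on the X chromosome of the BDGP6 build, in the Ensembl annotation. *ogre* (FBgn0004646, X:6973620-6991318, minus strand), *Inx7* (FBgn0027106, X:6991612-6993612, minus strand) and *Inx2* (FBgn0027108, X:6998672-7004151, plus strand) are neighbours, with 293 bases between *ogre* and *Inx7* and 5059 bases between *Inx7* and *Inx2*. *Inx5* (FBgn0030989) lies at X:19168777-19170883, *Inx6* (FBgn0027107) at X:20267821-20269769 and *shakB* (FBgn0085387) at X:20761071-20927050, all on the minus strand. *Inx3* (FBgn0265274) is the exception, on the minus strand of chromosome arm 3R at 28853606 to 28859497. The annotated proteins are of similar length, from 362 residues for Ogre to 481 for Inx6, while the 8 transcripts of *shakB* code for proteins of 292 to 532 residues. Counts were deposited per gene, so the isoforms of *shakB*, some of which serve the giant fibre system, were not separated. *ogre* shares 403 exonic bases with the noncoding gene *lncRNA:CR44084* on the opposite strand and *Inx5* shares 118 with the microRNA gene *mir-4959* inside it. Whether the counting used strand is not stated, so reads in these stretches cannot be assigned to 1 gene.

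Per kb of exonic sequence, the glial and epithelial innexins were the most abundant. *ogre* stood at 129 ± 14.4 normalized counts per kb (SD, n = 13 libraries), *Inx3* at 123 ± 17.1 and *Inx2* at 112 ± 9.24. These 3 genes took the first 3 places in every library but changed places among themselves, and their ranges of 105 to 153, 91.3 to 159 and 101 to 127 overlapped, so their order does not exceed their spread. *shakB*, the neuronal innexin, followed at 47.1 ± 12.3 per kb, and *Inx7* at 20.6 ± 18.5. *Inx5* was close to the limit of detection at 0.966 per kb. A level per kb depends on the length used, and with the longest transcript in place of the union of exons *ogre* ranked first in every library. Before division by length, *shakB* had the highest mean of the family, 862 normalized counts, against 613 for *Inx2* and 508 for *ogre*. Its place per kb thus rests on its long exonic sequence, 18.3 kb as a union and 14.9 kb in the longest transcript. Per kb, the summed level of the 6 genes ranged from 385 to 499 per library. *Inx7* made up the most variable share of it, from 1.25% to 14.5%, with the highest share in glia 2.

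**Figure D1:**
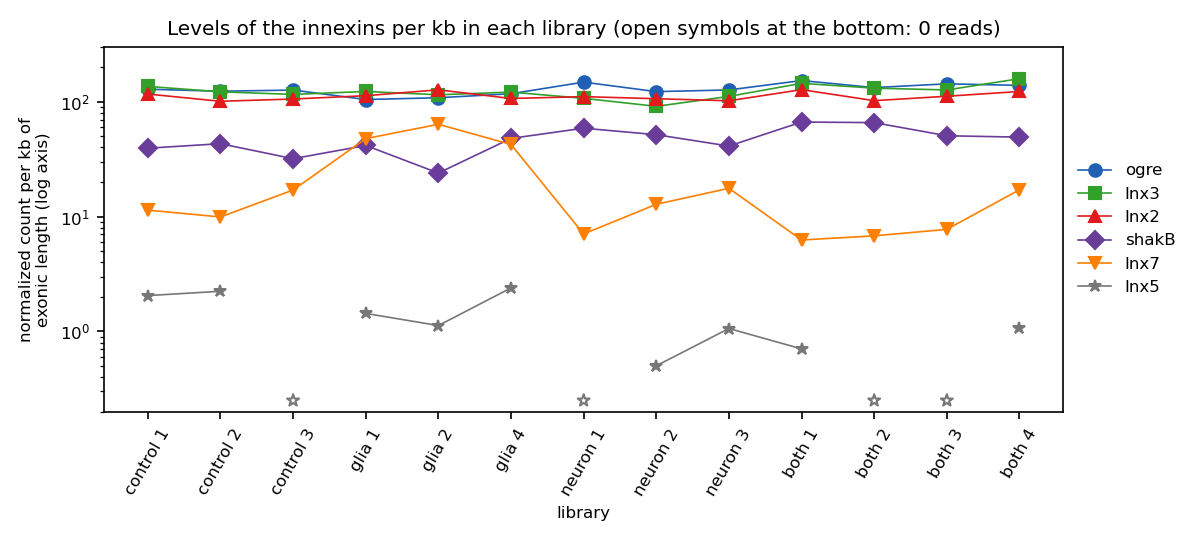
Level of each innexin in normalized counts per kb of exonic length (log axis) in each of the 13 libraries. ogre, Inx3 and Inx2 run together at the top in every library, Inx5 is lowest, and Inx7 passes shakB in glia 1 and glia 2.

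Among the 6 chosen innexins with a row, *Inx7* differed most between the groups. Control libraries held 18.6, 16.2 and 27.8 normalized counts of *Inx7*, neuron libraries 11.5, 20.9 and 28.8, and both libraries 10.2, 11.1, 12.6 and 28.0. The glia libraries held 78.0, 104 and 69.4. Every glia library was thus above every other library, and the other 3 groups overlapped. These levels rest on 60 to 102 reads per glia library and on 8 to 30 reads in each of the others. *Inx7* rose in glia against control from a mean of 20.9 ± 6.13 to 83.8 ± 18.0 (SD, n = 3 and 3), 4.01 times the control mean and a log2 change of 1.97 (SE 0.40, limma adjusted p = 0.0469). It was the only one of the 6 innexins to pass in this comparison, where 0.772% of all genes passed. Within batches, the log2 difference was 2.01 in batch 1 and 2.61 in batch 2, the only batches with a library of both groups. The call lies close to the threshold: with batch as a block the log2 change was 1.94 with an adjusted p of 0.121, and leaving out any library other than neuron 1 or both 4 also ended it (limma adjusted p 0.0516 to 0.176, log2 change 1.80 to 2.19). Over 23 alternative settings the direction held, and the adjusted p ranged from 0.0201 to 0.399 and passed in 7.

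**Figure D2:**
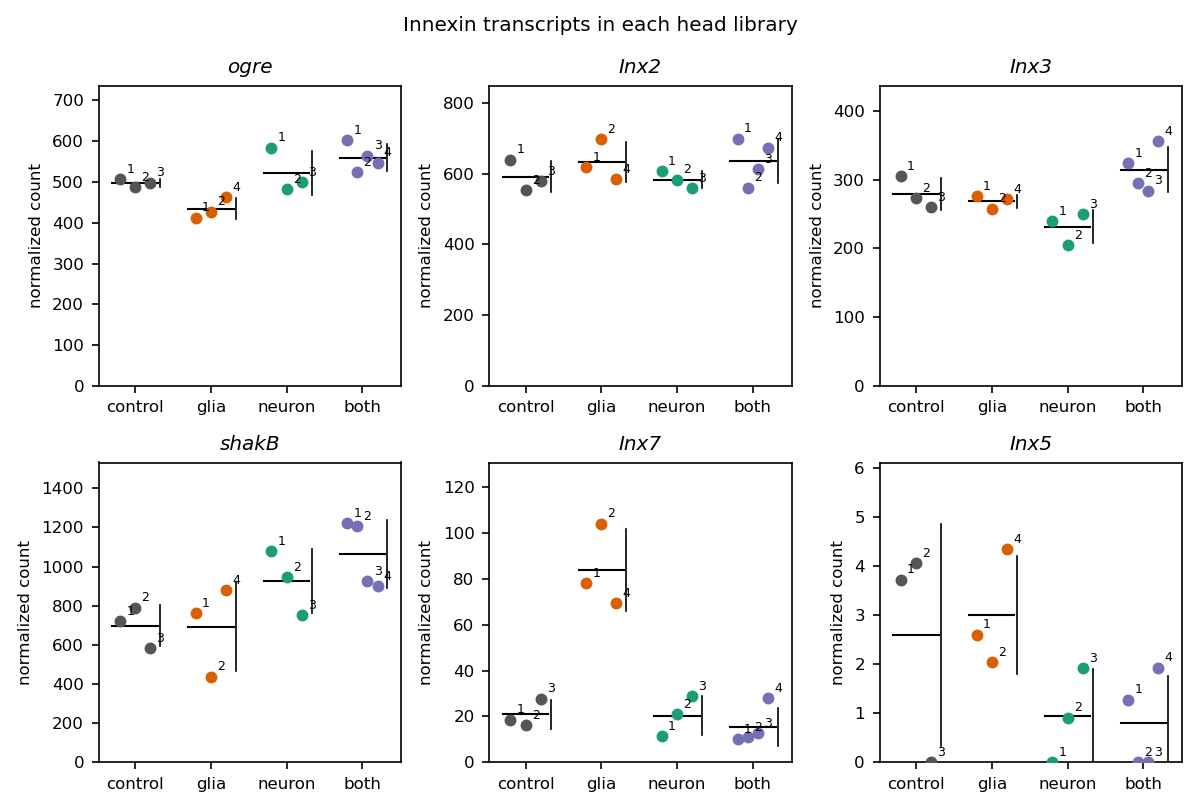
Normalized counts of the 6 innexins in each library, by group, with the batch number beside each point, the group mean as a horizontal line and 1 SD as a vertical line. The 3 glia libraries of Inx7 (69.4 to 104) lie above all others, and the 3 neuron libraries of Inx3 (205 to 250) lie below all others. All groups overlap for Inx2 and most do for shakB.

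*Inx7* was also lower where glial α-synuclein was accompanied by neuronal α-synuclein. In both against glia it fell to 0.185 times the glia mean, a log2 change of -2.46 (SE 0.38, limma adjusted p = 0.0028), and it passed the threshold in 23 of 23 alternative settings (limma adjusted p 0.000798 to 0.0249). Within batches 1, 2 and 4 the log2 difference was -2.82, -3.12 and -1.28. Against control, the log2 difference of both was -0.49 (95% interval -1.31 to 0.33, limma adjusted p = 0.516), and that of neuron was -0.08 (-0.96 to 0.79, adjusted p = 0.951). The interaction, which asks whether the 2 transgenes together differ from the sum of their separate effects, was -2.37 on the log2 scale (95% interval -3.57 to -1.18) and did not pass (limma adjusted p = 0.268). In that test 0.0821% of all genes passed, none of them an innexin.

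Markers of the midgut, which is not part of the head, also had their highest summed level in the glia libraries. The summed level of 10 midgut genes was 3846 to 10041 normalized counts in control libraries, 10901 to 21582 in glia, 810 to 5892 in neuron and 82.6 to 8982 in both. All 10 had a positive log2 difference in glia against control (median 1.88, against -0.03 over all genes tested), and 3 rose: *Myo61F*, a myosin of the gut brush border (2.16, limma adjusted p = 0.00875), the proton pump subunit *Vha100-4* (5.06, adjusted p = 0.0383) and the digestive protease *thetaTry* (4.83, adjusted p = 0.0408). In both against glia, 4 of the 10 fell. In neuron against control the midgut median was -2.02 (1 of 10 positive), and the value of *Inx7* was -0.08. In both against control these values were -1.85 and -0.49. Neuron 3, with the highest *Inx7* outside the glia group (28.8), had a midgut sum of 1915. Among the both libraries, both 4 had the highest level of *Inx7* and of the midgut sum. In both 3, *mex1*, *betaTry*, *thetaTry*, *Jon25Biii* and *Jon65Aiii*, 5 of the 10, were at 0. The *Inx7* level was 12.6 in both 3, from 17 reads, and 10.2 in both 1, from 8 reads, too few to order these libraries. In glia 4, the glia library with the lowest *Inx7*, *Jon25Biii* was the only 1 of the 10 at 0. The median of the list there was 196 normalized counts, against 61.9 to 75.6 in control. *mex1* was at 58.5 to 87.8 in the glia libraries and 7.44 to 14.6 in control, and *thetaTry* at 74.8 to 443 and 3.98 to 12.4. *Vha100-4* was at 79.1 to 153 and 0 to 12.4. *alphaTry*, *Jon65Aiii* and *lab* were also higher in every glia library than in every control library, and *betaTry*, *Jon25Biii* and *Amy-p* overlapped. *Myo61F* was at 515 to 583 in every glia library and at 110 to 137 in control. Markers of other tissues outside the head also differed between the groups. All 9 male accessory gland genes fell in both against control (median -6.08), where 1.01% of all genes passed. In neuron against control all 9 were lower (median -6.01, all 9 with an unadjusted p under 0.05), and no gene passed with limma. In glia against control, all 9 male accessory gland genes were lower (median -3.20, all 9 with an unadjusted p under 0.05). There 6 of 6 germline genes (median 1.23) and 4 of 5 eggshell and follicle cell genes (median 1.89) were positive, and no gene of these 3 lists passed with limma. The germline sum was 3729 in glia 2, 594 in glia 1 and 330 in glia 4, against 265 to 792 in control. The eggshell sum was 1513, 134 and 6.50 in the same libraries, against 18.6 to 59.8 in control. A germline gene, *bam* (-2.82, limma adjusted p = 0.0340), and an eggshell gene, *Cp15* (-4.01, adjusted p = 0.0355), fell in both against glia. Of 8 fat body and oenocyte genes 1 fell there, and of 6 hemocyte genes none passed (1 with an unadjusted p under 0.05). The part of RNA from these tissues in the *Inx7* result was not tested.

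The genes whose log2 profile over the 13 libraries was most like that of *Inx7*, among 8651 genes with a mean of at least 20 normalized counts, were *CG4734* (Pearson r = 0.945), *Mdr50* (0.942) and *CG2930* (0.940). *Mdr50*, a transporter of the multidrug resistance family, held 88.4, 73.4 and 43.4 normalized counts in the glia libraries and 2.55 to 34.5 in the others. Like *Inx7*, it was above all other libraries in every glia library, and control 3 and both 4 were the highest of their groups. These r values are descriptions, since the libraries share their groups and their scaling.

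**Figure D3:**
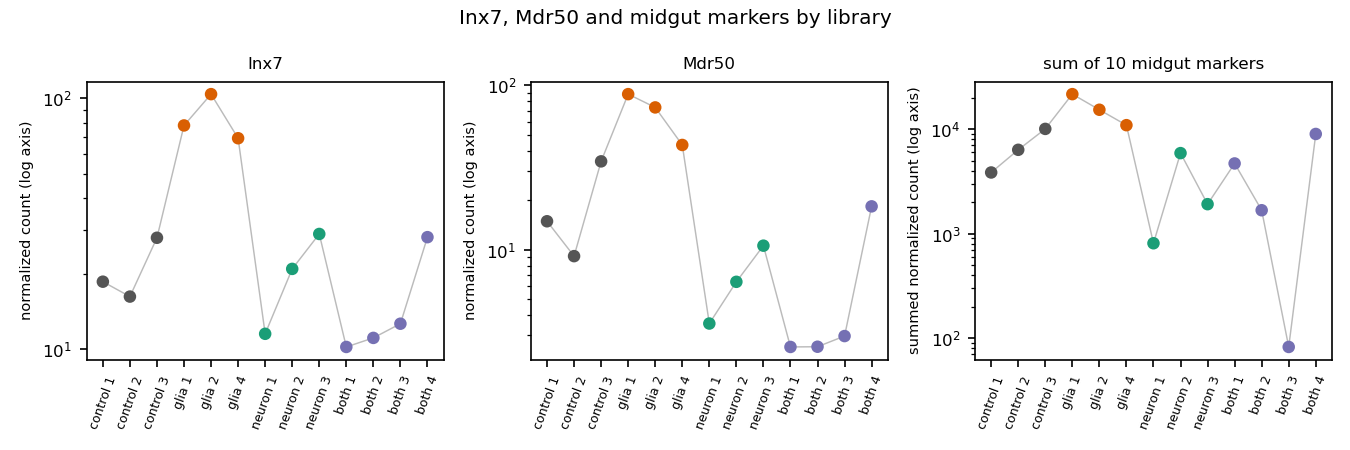
Inx7, Mdr50 and the sum of 10 midgut markers in each library (normalized counts, log axes, coloured by group). The glia libraries are highest in each panel, the highest being 104 for Inx7, 88.4 for Mdr50 and 21582 for the midgut sum.

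*ogre*, which in the visual system is needed for a normal optic lobe, was lowest in the glia flies. Its levels were 507, 487 and 498 normalized counts in control libraries, 412, 427 and 463 in glia, 584, 483 and 500 in neuron and 603, 524, 565 and 547 in both. Every glia library was below every library of the other groups, and every both library was above every control library. *ogre* rose in both against glia, from 434 ± 26.0 (SD, n = 3) to 560 ± 33.4 (n = 4), 1.29 times the glia mean and a log2 change of 0.37 (SE 0.09, limma adjusted p = 0.0294). With *Inx7* it made 2 of 6 innexins past the threshold in this comparison, where 7.86% of all genes passed. The difference held its direction within batches 1, 2 and 4 (0.55, 0.29 and 0.24 on the log2 scale) and kept its call with batch as a block (0.37, limma adjusted p = 0.0485). It lost the call when glia 1, glia 2, both 1 or both 3 was left out (log2 change 0.33 to 0.36, limma adjusted p 0.0612 to 0.0809), and over 23 alternative settings it passed in 14 (adjusted p 0.0192 to 0.786).

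The direction of the *ogre* difference depends on the scaling. When libraries were centred on neuronal markers the log2 value for both against glia was -0.28, and on glial markers -0.05, while the median of all genes moved from -0.07 to -0.69 and -0.47. Relative to that median, *ogre* was 0.44 higher in the submitters' scaling and 0.41 and 0.42 higher in the other scalings. Centring divides all genes of a library alike, so these near-equal values follow from the method and add no evidence on *ogre*. *ogre* did not pass in any other comparison. In glia against control its log2 difference was -0.20 (95% interval -0.40 to 0.01, limma adjusted p = 0.523), although the libraries did not overlap, which held for *ogre* and *Inx7* here and for 11.9% of all genes. In both against control it was 0.17 (-0.02 to 0.36, adjusted p = 0.319), with both above control in every library under the submitters' scaling and a value of -0.35 when centred on neuronal markers.

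The genes most like *ogre* across libraries were *e* (*ebony*; r = 0.914), *ash1* (0.908), a histone methyltransferase, and *Pdfr* (0.907), the receptor of a circadian neuropeptide. Ebony is the glial enzyme that conjugates β-alanine to the photoreceptor transmitter histamine. It was lowest in glia 2 and glia 1 (88.7 and 101 normalized counts) and highest in both 3 (204), but glia 4 (144) lay within the range of control (120 to 150). Of 6 measured genes of the lamina histamine cycle, 2 rose in both against glia: *CarT*, a carcinine transporter (1.15, limma adjusted p = 0.0266), and *Hdc*, the histamine synthesizing enzyme (0.75, adjusted p = 0.0348). *e* itself was at 0.68 (adjusted p = 0.0509). The median log2 difference of the 6 genes was 0.78, against -0.07 over all genes tested. Photoreceptor markers differed more in the same comparison, with 8 of 10 risen, 10 of 10 positive and a median of 0.91, among them the light-activated channel *trp* (1.07, limma adjusted p = 0.0173). Muscle markers went the other way, with 8 of 8 negative, a median of -0.57 and 1 fallen, the myosin light chain *Mlc1* (-0.95, limma adjusted p = 0.0396). The part of these differences in the *ogre* result was not tested.

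*Inx2*, which is found in most gap junctions of glia and epithelia, was the steadiest of the family. Its levels were 640, 554 and 579 normalized counts in control libraries, 619, 696 and 585 in glia, 607, 583 and 559 in neuron and 699, 560, 612 and 674 in both. All groups overlapped, and the coefficient of variation over the 13 libraries was 8.26%, against 11.2% for *ogre*, 13.9% for *Inx3* and 26.1% for *shakB*. No comparison passed for *Inx2*. Its log2 difference was 0.10 in glia against control (95% interval -0.13 to 0.33, limma adjusted p = 0.800), -0.02 in neuron against control (-0.25 to 0.21, adjusted p = 0.964) and 0.10 in both against control (-0.11 to 0.32, adjusted p = 0.608). For both against glia the interval was -0.21 to 0.22 in the submitters' scaling, and the estimate was -0.64 when libraries were centred on neuronal markers, a value close to that scaling's median of all genes.

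Because *ogre* and *Inx2* are partners in glia, their ratio per kb was followed as a measure that does not depend on the scaling of a library. The *ogre* to *Inx2* ratio was 1.17 ± 0.06 in control (SD, n = 3), 0.96 ± 0.13 in glia (n = 3), 1.24 ± 0.09 in neuron (n = 3) and 1.23 ± 0.08 in both (n = 4). Each glia library, at 0.853 to 1.10, was below each control library, at 1.10 to 1.22, and the closest of these nearly touched. The ratio was not tested.

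*Inx3*, which forms mixed channels with Inx2, was lowest in the neuron flies and highest in both. It held 305, 274 and 260 normalized counts in control libraries, 276, 258 and 272 in glia, 240, 205 and 250 in neuron and 324, 295, 284 and 356 in both. Every neuron library was below every library of the other groups, while both 2 and both 3 lay within the range of control. The log2 difference was -0.27 in neuron against control (95% interval -0.52 to -0.03, limma adjusted p = 0.385) and 0.44 in both against neuron (0.21 to 0.67, adjusted p = 0.761). The second ranked 19 of 12181 genes by its unadjusted p of 0.00123, in a comparison where no gene passed with limma (0.0% of all genes) or with its voom variant and 516 had an unadjusted p under 0.05. Libraries that did not overlap were found for *Inx3* alone among the innexins in each of these comparisons, and for 21.1% and 6.65% of all genes. The interaction for *Inx3* was 0.50 (0.16 to 0.83, limma adjusted p = 0.398). Most like *Inx3* across libraries were *Trp1* (r = 0.854), a subunit of the protein translocation machinery of the endoplasmic reticulum, *CG12121* (0.842) and *fit* (0.767), a gene of the head fat body that is higher in females.

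*shakB* had its highest group means in the flies with neuronal α-synuclein but did not pass the threshold in any comparison. Its levels were 722, 790 and 584 normalized counts in control libraries, 762, 438 and 878 in glia, 1077, 946 and 753 in neuron and 1220, 1205, 926 and 900 in both. Every both library was above every control and glia library, the lowest both library (900) being close to glia 4 (878), and neuron 3 lay within the range of control. The log2 difference was 0.40 in neuron against control (95% interval -0.11 to 0.91, limma adjusted p = 0.498), 0.60 in both against control (0.12 to 1.08, adjusted p = 0.180) and 0.66 in both against glia (0.18 to 1.14, adjusted p = 0.0816). These comparisons with control share the control libraries. No innexin passed in neuron against control, where 0 of 12181 genes passed (0.0%, and 0 with voom) and 1502 had an unadjusted p under 0.05, and none in both against control, where 1.01% of genes passed. Libraries did not overlap for 2 of the 6 chosen innexins in both against control, *ogre* and *shakB*, and for 20.9% of all genes. Leaving out glia 2 gave an adjusted p of 0.0413 for *shakB* in both against control, at the same log2 change of 0.60, and leaving out glia 4 gave 0.0277 in both against glia, with a log2 change of 0.86. Over 23 alternative settings the limma adjusted p of *shakB* ranged from 0.0413 to 0.603 in the former and from 0.0277 to 0.919 in the latter.

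The summed level of 12 neuronal markers was 20566 to 23013 normalized counts in control libraries, 12484 to 25822 in glia, 26267 to 31360 in neuron and 29318 to 32909 in both, and like *shakB* it was lowest in glia 2. With libraries centred on these markers, the log2 difference of *shakB* was 0.09 in both against control and 0.02 in both against glia, and -0.03 in neuron against control. Of the 12 markers, 4 rose in both against glia, where 7.86% of all genes passed, among them *nSyb* (0.78, limma adjusted p = 0.0306), *brp* (0.74, adjusted p = 0.0418) and *para* (0.74, adjusted p = 0.0454), which serve transmitter release and the sodium spike. In both against control none of the 12 passed (10 with an unadjusted p under 0.05). There the 10 photoreceptor markers were all positive (median 0.67, 9 with an unadjusted p under 0.05, none called), and the 8 muscle markers were all negative (median -0.91, all 8 with an unadjusted p under 0.05, 1 fallen). The part of these differences in the *shakB* values was not tested. The genes most like *shakB* were *Rbp6* (r = 0.983), an RNA-binding protein of the Musashi kind, *CG32206* (0.982) and *Frq1* (0.982), a neuronal calcium sensor. *Rbp6* ranged from 1596 normalized counts in glia 2 to 3979 in both 1, the libraries that were also lowest and highest for *shakB*.

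**Figure D4:**
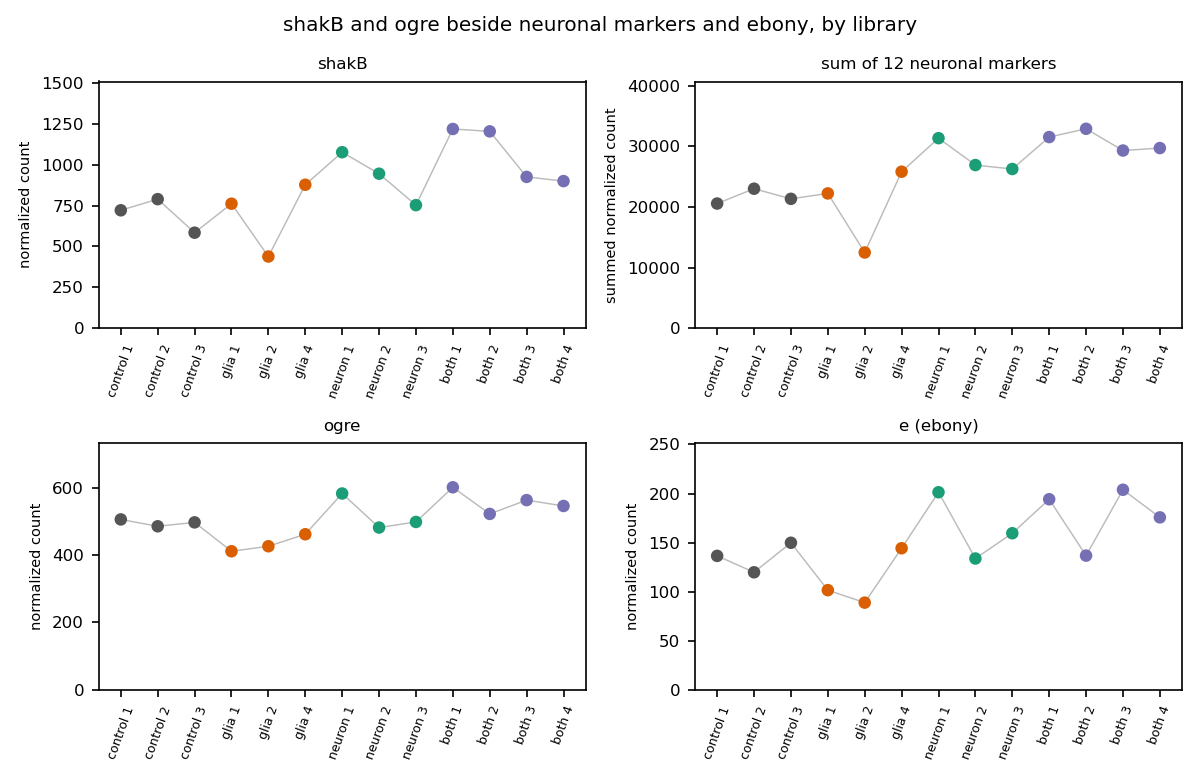
shakB, the sum of 12 neuronal markers, ogre and e (ebony) in each library (normalized counts, linear axes from 0, coloured by group). shakB and the neuronal sum are both lowest in glia 2 (438 and 12484), and ogre is lower in the 3 glia libraries (412 to 463) than in any other.

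*Inx5* was barely detected, with 21 reads over the 13 libraries and 0 reads in control 3, neuron 1, both 2 and both 3. Its means were 2.59 normalized counts in control libraries, 2.99 in glia, 0.944 in neuron and 0.802 in both, where 3 reads over a group correspond to 1.18, 1.12, 0.918 and 0.692. At this depth no difference in *Inx5* was detectable, and no fold is given. *zpg*, the germline innexin, held 188 normalized counts in glia 2, 15.6 in glia 1 and 2.17 in glia 4, against 2.65 to 19.8 in control and 0 to 6.37 in the neuron and both libraries. In both against glia it fell by 4.13 on the log2 scale (limma adjusted p = 0.0498), and without glia 2 by 2.56 (adjusted p = 0.180, with a range of 0.00911 to 0.180 over 23 alternative settings). The high value is in the library that also had the highest germline marker sum.

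**Figure D5:**
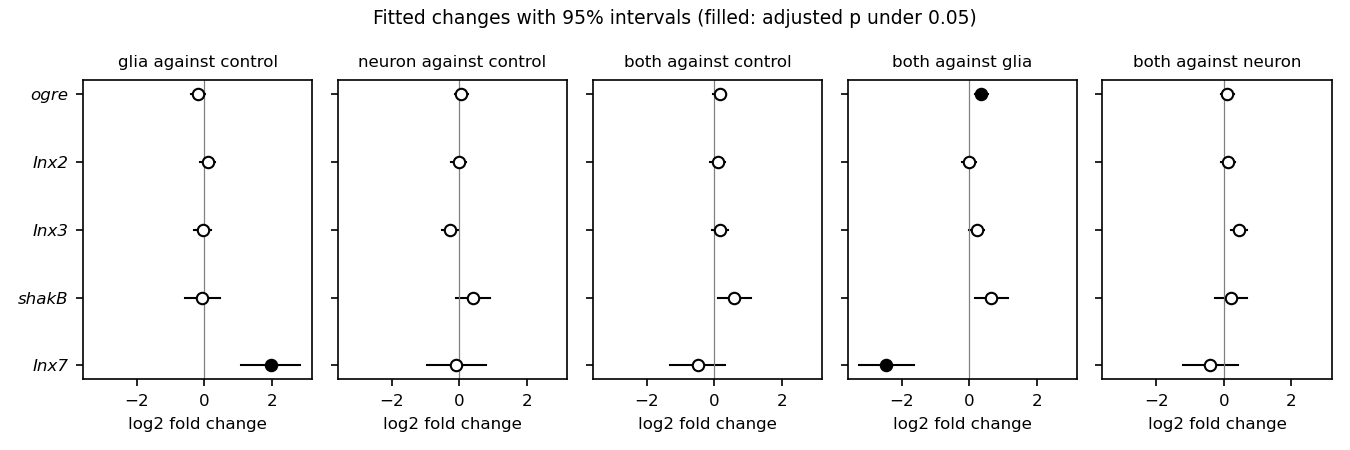
Log2 fold change with its 95% interval from limma for 5 innexins in 5 comparisons, with filled points where the adjusted p was under 0.05. The filled points are Inx7 in glia against control (1.97) and Inx7 (-2.46) and ogre (0.37) in both against glia, and the interval of Inx2 includes 0 throughout.

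Across the comparisons, the intervals of *Inx7* were the widest of these 5 genes and those of *ogre* the narrowest, as the plot of fitted changes shows. In both against glia, libraries did not overlap for 5 of the 6 innexins in the submitters' scaling, against 22.4% of all genes. *ogre*, *Inx3* and *shakB* were above and *Inx7* below. The fifth, *Inx5*, was separated only by the size factors, since its closest libraries, both 4 and glia 2, held 2 reads each. *Inx3* had a log2 difference of 0.22 there (95% interval -0.01 to 0.45, limma adjusted p = 0.190). Centred on neuronal, then glial markers, the log2 difference became -0.42 and -0.19 for *Inx3* and -0.28 and -0.05 for *ogre*. *shakB* and *Inx7* kept their direction, and the overlap of libraries was not recomputed in these scalings. In both against neuron no innexin had an adjusted p below 0.761.

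Levels of *ogre*, *Inx2*, *Inx3* and *shakB* were compared with each other over the 13 libraries, *Inx5* being too sparse and the glia libraries of *Inx7* forming a separate cluster. None of the 6 pairs passed after Benjamini-Hochberg adjustment of permutation tests. The closest was *ogre* with *shakB*, with Pearson's r = 0.67 (permutation p = 0.0107, adjusted 0.0643) and Spearman's rho = 0.62 (permutation p = 0.0266, adjusted 0.160). Without glia 1 and both 1, the libraries farthest from the median of *ogre*, r was 0.68. *ogre* with *Inx2* had r = 0.13 and *Inx2* with *Inx3* r = 0.48 (adjusted permutation p = 0.663 and 0.288).

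Lists of genes that work beside innexins held no call with limma. Of 18 adherens and septate junction genes, which hold and seal the same cell contacts, none passed in any comparison. Of these genes, 5 had an unadjusted p under 0.05 in both against glia, and the smallest belonged to *dlg1* (0.44, limma adjusted p = 0.0649), *vari* (0.35, adjusted p = 0.0701) and *p120ctn* (0.24, adjusted p = 0.151). Of 10 genes of calcium stores and calcium transport, none passed. An unadjusted p under 0.05 was found for 6 of them in both against control and for 3 in both against glia. The closest in both against glia was *Nckx30C*, a sodium-calcium exchanger (0.62, limma adjusted p = 0.0607). Of 10 glial markers none passed either (6 with an unadjusted p under 0.05), and 9 were positive in both against glia with a median of 0.39, among them *repo* (0.59, limma adjusted p = 0.0870) and *Mdr65* (0.59, adjusted p = 0.0885). In glia against control, the median was -0.07 for the junction genes, -0.08 for the calcium genes and -0.14 for the glial markers, against -0.03 over all genes tested. In both against glia, 16 of 18 junction genes and 6 of 10 calcium genes were positive. Their medians there were 0.15 and 0.19, against -0.07 over all genes tested.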

How the data were processed

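RNA of fly heads was depleted of ribosomal RNA and sequenced as stranded paired-end libraries, per the labels' protocols. Per the submitters' processing notes, the tools were STAR, Salmon, featureCounts and DESeq2, with FastQC and MultiQC, and the build was BDGP6, with no version or setting given. The deposited values are a signal that the file headers name adjusted counts. Each equals a library's reads over its own size factor, with 1 added, since undoing both steps gave whole reads for 100% of values (within 0.01). Normalized counts were the deposited values minus 1. Genes with at least 1 normalized count in at least 4 libraries were kept, and a linear model of the 4 groups was fitted to log2(normalized count + 1) with limma 3.58.1 in R 4.3.3, with a trend and no batch term, tested on simulated data first. Fold changes on this scale understate low genes. Limma on the log scale was planned, because the deposited values are scaled and offset and are not whole counts.

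Samples were grouped by title and genotype. The labels give each number as a batch, so numbers pair samples by label, and the deviations of 16 same-number pairs had a median correlation of 0.0697, 5 of them over 0.1. The 3 samples without a column were not analysed here. If they were dropped because of their values, group spreads here are too small. The members and gene lists were chosen with earlier results of these data known. Genes named were the innexins, the 3 genes most like each innexin with a mean of at least 20 normalized counts, and up to 3 genes per list described, taken by smallest p. *Mdr50*, *e* and the midgut genes were followed by library or by group range, and midgut genes at 0 were named, after their values had been seen. The lists describe counts and medians without a set test. Lists of photoreceptor, fat body, hemocyte, muscle, accessory gland, germline and eggshell genes were also computed. Permutation tests of correlations used 100000 resamples and were two-sided. Intervals and the limit of 3 reads cover counting or fitting error only.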

Additional observations from a re-analysis of the deposited data

Results flagged for a closer look

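Among the both libraries, the level of *Inx7* in both 4, 28.0 normalized counts, stood apart from 10.2 to 12.6 in the 3 others. Its gap to the nearest library was 0.863 of the range of the group, above Dixon's 95% critical value for 4 samples. This was looked at in the both group alone, for 6 genes, and chance would flag about 5% of groups. The midgut marker sum was also highest in both 4 within that group, at 8982 normalized counts, and whether the values are related was not tested.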

How the results depend on the processing

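The number of innexins past the threshold in glia against control, 1, became 0 with a pseudocount of 0.5, with the replicate block, with libraries centred on neuronal markers and, chosen after seeing the data, without glia 2 and control 1 or in batches 1 and 2 alone. Leaving out single libraries gave 0 to 1. In both against glia, 2 became 1 under centring on neuronal or glial markers, with only the groups compared, without glia 2 and control 1 and in batches 1 and 2 alone, and single libraries gave 1 to 3. In both against control single libraries gave 0 to 1, and in the other comparisons 0. With the replicate block, which pairs samples by batch, the genes called in glia against control, both against control, both against glia and the interaction were 29, 1, 739 and 0, against 94, 123, 957 and 10 without it, and the block changed no other innexin call. Other counts differed by over 1.5 times: 60 and 179 with pseudocounts of 0.5 and 5 in glia against control, and 6 and 43 in the interaction. Centring on neuronal markers gave 744, 3204 and 0 in both against control, both against glia and the interaction, and centring on glial markers gave 659 and 2280, with 38 in neuron against control. With only the groups compared, the counts were 692 in both against control, 288 in both against glia and 5 in both against neuron. With voom on the recovered reads, also added later, they were 0 in both against control and the interaction. Without glia 2 and control 1 they were 9, 0, 342 and 2 in glia against control, both against control, both against glia and the interaction, and in batches 1 and 2 alone 54 in the first, 282 in both against glia and 0 in the interaction. Single libraries gave 30 to 131 in glia against control (30 without glia 2), 0 to 254 in neuron against control, 0 to 855 in both against control (855 without glia 2), 427 to 1876 in both against glia and 0 to 47 in the interaction. The causes were not tested.

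Centring on neuronal, then glial markers reversed *Inx3* (0.076 and 0.039) and *shakB* (0.069 and 0.033) in glia against control, and *ogre* (-0.37 and -0.30) in neuron against control, where *shakB* reversed on neuronal markers only (-0.034). It reversed *ogre* (-0.35 and -0.16), *Inx2* (-0.41 and -0.22) and *Inx3* (-0.34 and -0.15) in both against control, and *ogre* (-0.28 and -0.052), *Inx2* (-0.64 and -0.41) and *Inx3* (-0.42 and -0.19) in both against glia. Centring moves all genes alike. Their median in glia against control went from -0.03 to 0.10 and 0.06, and *Inx3* and *shakB* stayed below that median. The median went from -0.05 to -0.55 and -0.37 in both against control, and from -0.06 to -0.48 and -0.41 in neuron against control. Without glia 2 and control 1, *Inx3* (0.038) and *shakB* (0.27) reversed in glia against control and *Inx2* (0.042) in neuron against control, and in batches 1 and 2 alone *Inx2* (-0.069) in both against glia. Leaving out single libraries gave ranges that include 0 for *Inx3* (-0.11 to 0.0097) and *shakB* (-0.26 to 0.24) in glia against control, for *ogre* (-0.018 to 0.12), *Inx2* (-0.063 to 0.042) and *Inx7* (-0.37 to 0.26) in neuron against control and for *Inx2* (-0.051 to 0.074) in both against glia. Of 664 fold changes under alternatives, 588 kept direction and side of the threshold. Of 154 recomputed levels and ratios, 8 moved by more than 1 SD, all 8 from the length of the longest transcript. Correlated pairs of innexins went from 0 to 3 when centred on neuronal markers. Since the added offset is shared by all genes, that count says nothing about the innexins. The planned edgeR and DESeq2 tests were not run, and the interaction was not refitted with only the groups compared. *Inx7* rests on 8 to 102 reads per library and *Inx5* on 0 to 4.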
